A study of Bos grunniens x Bos taurus and Bos grunniens with 12 samples.

Results

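The 7 entries described here are small RNAs of milk exosomes that carry the name of a mouse precursor. They are mmu-mir-6240-p5, 3 entries of mmu-mir-6236 (p5_1ss15CG, p3_1ss4CG and p3_1ss13CG), mmu-miR-5106_R-4_1ss1AG and 2 entries of mmu-miR-5124a (miR-5124a_L-1R-1_1ss5CA and mir-5124a-p5_1ss6CA). They were chosen by name from the 2263 entries of the table, for 4 precursors said to resemble ribosomal or other structural RNA and for higher values in June. The higher June values are therefore how the entries were picked and are given as a description, with no test.

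Milk exosomes, the small membrane vesicles of milk, were purified from lactating yaks and from Jeryaks, the hybrids of yak and Jersey cattle, 4 to 5 years old. Small RNA was sequenced in 12 libraries, 3 for each of Jeryak in June (Jun_JY), yak in June (Jun_Y), Jeryak in December (Dec_JY) and yak in December (Dec_Y). The labels write CY for the hybrid, which was read as Jeryak. None of the animals had a treatment or an altered gene, and the labels tie no library to an animal, so p-values measure the spread between these libraries. The breeds are compared in June (P1) and in December (P3), and the months are compared within Jeryak (P2) and within yak (P4).

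A mature miRNA is cut from a hairpin precursor by Drosha and Dicer and has sharp ends, above all at its 5′ end, which holds the seed. Ribosomal RNA and transfer RNA are far more abundant in a cell, and their breakdown gives fragments of miRNA length with many different ends. Some hairpins entered in miRBase overlap such RNAs, so that a fragment can be named as a miRNA. The name of an entry only says which precursor its reads resembled, and the mouse name does not say which organism a read came from. The paper reports filtering reads against RFam, which includes ribosomal and transfer RNA, so the reads described here had passed that filter. The entries were not matched to ribosomal RNA, transfer RNA or a genome here, so their resemblance to structural RNA rests on the names. Whether the reads came from the animal or from another organism was not tested.

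In the names, p5 and p3 mark the hairpin arm that the software assigned to reads not named as the annotated mature miRNA. The tag is not a reliable position here, since mir-5124a-p5 overlaps entries named after mature miR-5124a. R-4 or L-1 marks an end that is shorter by that many bases. 1ss15CG marks a substitution, C in the precursor and G in the read at base 15. The sequences of the mir-6236 and mir-6240 entries show how closely the members resemble each other, and those of miR-5106 and miR-5124a are described by length and overlap only. The capital marks the base that differs from the mouse precursor, counted from the 5′ end of the entry (C15G, C13G, C4G and C11G), and the entry p3_1ss11CG, which is not one of the 7, is shown because it carries the same base. Some placed entries, such as p3_1ss18GC, also differ from the precursor at position 42 of the joined stretch, which is left in lower case. In the joined stretch the capitals mark positions 15 and 49, where the stretch itself differs from the precursor (G17C in the entry p5_1ss17GC for the latter):
mmu-mir-6236-p5_1ss15CG: ctcacctgccgaatGaact
mmu-mir-6236-p3_1ss13CG: cacctgccgaatGaactagccctg
mmu-mir-6236-p3_1ss11CG: cctgccgaatGaactagccct
mmu-mir-6236-p3_1ss4CG: aatGaactagccctgaaaatgga
mir-6236 joined stretch: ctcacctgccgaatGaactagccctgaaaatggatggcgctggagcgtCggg
mmu-mir-6240-p5: tctgcccagtgctctgaa
mmu-mir-6240-p3: atttctgcccagtgctctg

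The mir-6236 members overlap in sequence and have the same G. The joined stretch of 52 nt printed above was built from selected mir-6236 entries with a minimum overlap of 10 nt. Of the 19 entries named after mir-6236, 18 could be placed on it, allowing 1 mismatch, with 13 different starts and 10 different ends. The 3 members therefore share sequence and are not independent measurements of 3 miRNAs. mmu-mir-6240-p5 and mmu-mir-6240-p3, named after opposite arms of a hairpin, likewise overlap. A stretch of 27 nt was built from selected mir-6240 entries, and 4 of 15 could be placed on it, allowing 1 mismatch. Entries outside the selections were not used to extend either stretch. These precursors had the most entries of all 780 precursor names, of which 75% had 1 entry. The 4 entries of miR-5124a fell within 21 nt and the 3 of miR-5106 within 19 nt, so that the 2 miR-5124a members overlap as well. The 7 members were 18 to 24 nt long, with a median of 19 nt. The median was also 19 nt for the 120 other mouse-named entries. It was 20 nt for all 2263 entries and 22 nt for the 583 entries named after cattle, bta.

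The unit is the norm value, the copy number of an entry multiplied by 1 correction factor per library. Values summed to 588715 to 816871 per library. A single copy stood for 1.02 to 3.30 in June, 0.730 to 1.86 in December yak and 0.127 to 0.269 in December Jeryak libraries, so low values were easiest to detect in December Jeryak milk, and 3 copies, the limit that a count of 0 allows, came to 3.06 to 9.90 in June, 2.19 to 5.59 in December yak and 0.381 to 0.808 in December Jeryak milk. These limits cover counting error only. All 10 miRNAs known as abundant in milk that were checked were detected, and they held 33.5 to 61.6% of the summed norm values. Of the leukocyte miRNAs 3 of 4 were counted as detected, and of the red cell miRNAs 3 of 3. The leukocyte miRNA not counted was miR-223, which is listed under a human name (hsa-miR-223-3p_R+1), so the leukocyte share leaves it out. The leukocyte share was at most 0.00932% in June, 0.067 to 0.877% in December Jeryak and 0.0167 to 0.0364% in December yak libraries. The red cell share was 0.00646 to 0.0282% in June Jeryak, 0.0166 to 0.109% in June yak, 0.00219 to 0.00368% in December Jeryak and 0.00656 to 0.0294% in December yak libraries. Both shares moved with month and breed, and their part in the results below was not tested. The month and any difference in library making or sequencing between June and December cannot be told apart.

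The 7 members together were a small part of the June libraries and almost none of the December libraries. In June they held 1.46 ± 0.58% of the summed norm values in Jeryak and 2.003 ± 0.92% in yak milk (SD, n = 3). In December they held 0.00989 ± 0.0035% in Jeryak and 0.0405 ± 0.011% in yak milk (SD, n = 3). The mir-6236 and mir-6240 members and the other members were divided differently between the breeds in June. The 4 members of mir-6236 and mir-6240 held 0.280 ± 0.083% in Jeryak and 1.33 ± 0.65% in yak milk (SD, n = 3), and every yak library (0.673 to 1.97%) was above every Jeryak library (0.202 to 0.367%). The 3 members of miR-5106 and miR-5124a held 1.18 ± 0.65% in Jeryak and 0.676 ± 0.27% in yak milk, with overlapping libraries (0.744 to 1.93% and 0.423 to 0.964%).

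**Figure D1:**
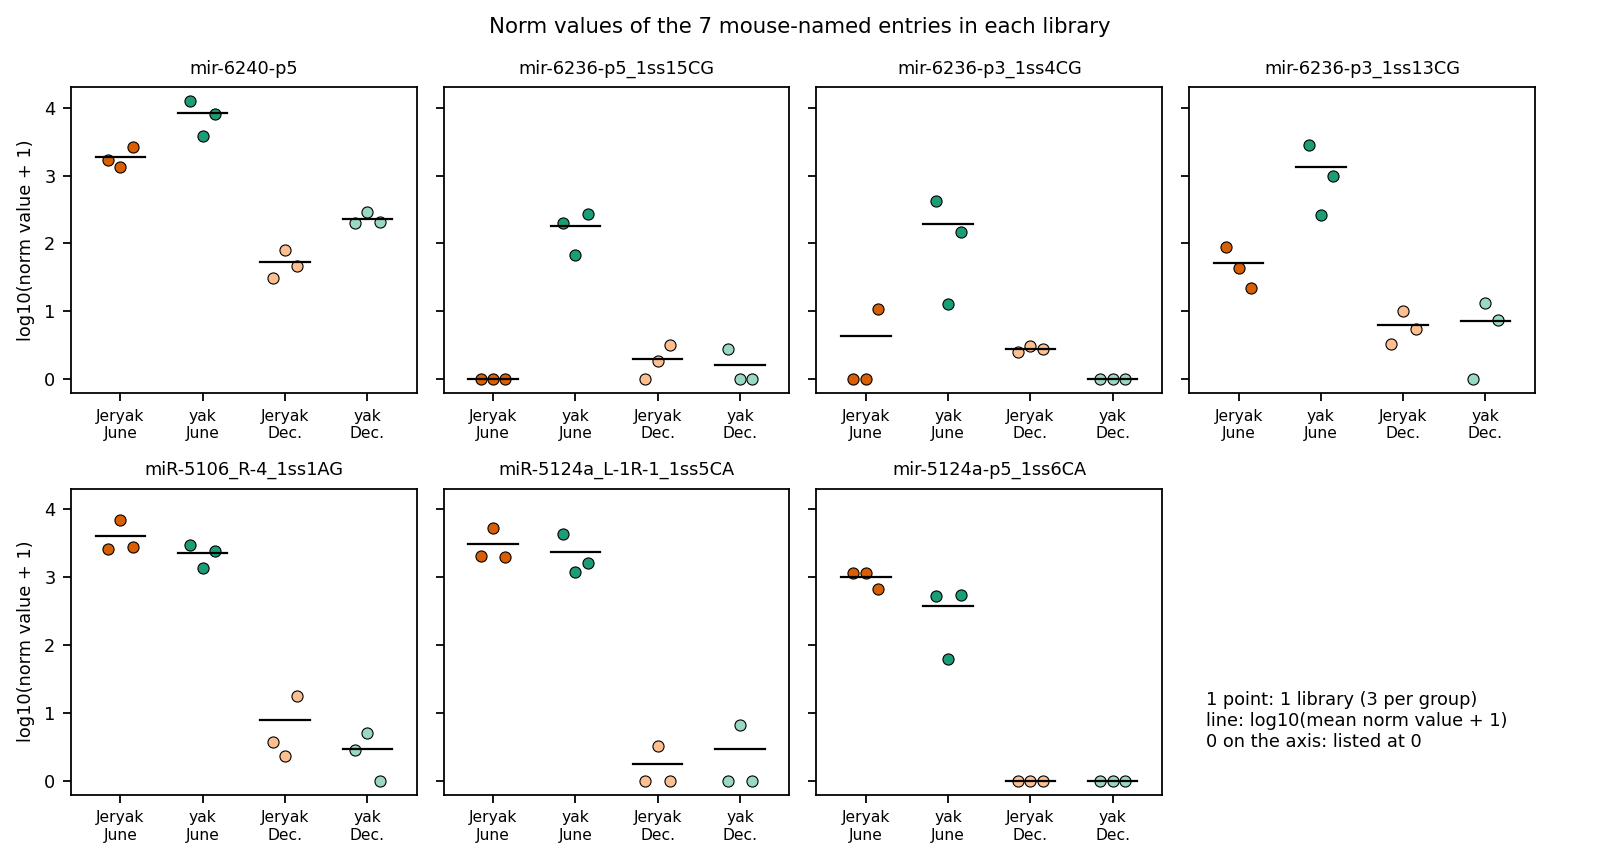
Norm values of the 7 members in the 12 libraries, on the log10(norm value + 1) axis (1 point for each library, a line at the group mean). In June, yak libraries (green) are above Jeryak libraries (orange) for mir-6240-p5 and the 3 mir-6236 members, miR-5106 and miR-5124a_L-1R-1 overlap between breeds, and mir-5124a-p5 is listed at 0 in all 6 December libraries.

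mmu-mir-6240-p5, 18 nt, was the member with the highest value in June yak milk and was present in every library. In June its norm values were 1684, 1354 and 2630 in Jeryak milk. In yak milk of that month they were 12653, 3872 and 8195. The lowest yak library was thus above the highest Jeryak library. In December they were 30.1, 80.0 and 46.3 in Jeryak and 198, 293 and 205 in yak milk. Here too all yak libraries were above all Jeryak libraries, and the groups of the 2 months did not overlap in either breed. By its mean it ranked 16th of all entries in June yak milk, the highest of the mouse-named entries there, 48th in June Jeryak milk, and 132nd and 214th in December yak and Jeryak milk.

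mmu-mir-6236-p3_1ss13CG, 24 nt, was the most abundant mir-6236 member. Its norm values were 87.8, 42.1 and 21.0 in June Jeryak and 2797, 264 and 993 in June yak libraries. The yak libraries lay above the Jeryak libraries and spread over a wide range, with replicate 1 the highest and replicate 2 the lowest. In December Jeryak milk it had 2.30, 9.07 and 4.58. In December yak milk it had 0, 12.3 and 6.52. The breeds overlapped in December.

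mmu-mir-6236-p5_1ss15CG, 19 nt, was listed at 0 in all 3 June Jeryak libraries and had 196, 66.2 and 272 in June yak milk. In December it had 0, 0.825 and 2.16 in Jeryak and 1.82, 0 and 0 in yak milk. It was thus seen at a clear level in June yak milk only. The Jeryak values of both months were below what 3 copies stood for in the June libraries, so a difference between months in Jeryak was not detectable at this depth.

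mmu-mir-6236-p3_1ss4CG, 23 nt, followed the same pattern, with 0, 0 and 9.87 in June Jeryak and 419, 11.7 and 146 in June yak milk. June yak replicate 2 lay close to June Jeryak replicate 3. In December it was listed at 0 in all 3 yak libraries and had 1.51, 2.03 and 1.75 in Jeryak milk, which were 8.5, 16 and 6.5 copies. Values of that size were below the 3-copy limit of the December yak libraries, so the December groups cannot be ordered by them. For these 2 entries higher June values were seen in yak milk, and in Jeryak milk the direction was not settled at this depth.

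mmu-miR-5106_R-4_1ss1AG, 19 nt, had the highest mean of all mouse-named entries in June Jeryak milk, where it ranked 33rd of all entries. Its norm values were 2567, 6879 and 2746 in June Jeryak and 3034, 1389 and 2440 in June yak libraries. The breeds overlapped, and Jeryak replicate 2 stood above the other 5 June libraries. In December it had 2.75, 1.33 and 16.7 in Jeryak and 1.82, 4.09 and 0 in yak milk. These were 15.5, 10.5 and 62 copies in Jeryak and 2.5, 2.5 and 0 copies in yak milk, the latter below the 3-copy limit, so no fold is given for yak. In Jeryak the June mean was 587 times the December mean, 1992 times without December Jeryak replicate 3 and 383 times without June Jeryak replicate 2.

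mmu-miR-5124a_L-1R-1_1ss5CA, 18 nt, had 2047, 5308 and 1976 in June Jeryak and 4317, 1200 and 1595 in June yak libraries. Its highest library in each breed was the same as for miR-5106, and its value was 0.65 to 1.42 times that of miR-5106 in the 6 June libraries. In December it was listed at 0 in 4 of 6 libraries and had 2.22 in Jeryak replicate 2 and 5.72 in yak replicate 2.

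mmu-mir-5124a-p5_1ss6CA, 19 nt, an end variant of the same sequence, had 1153, 1162 and 676 in June Jeryak and 521, 61.2 and 553 in June yak milk. All Jeryak libraries were above all yak libraries. It was listed at 0 in all 6 December libraries. Its value was 56.3, 21.9 and 34.2% of that of miR-5124a_L-1R-1 in the Jeryak libraries and 12.1, 5.10 and 34.7% in the yak libraries, so the share of this end variant was lower in 2 of 3 yak libraries than in any Jeryak library.

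On the log2(norm value + 1) scale, on which a fold change of a low entry is understated, the June against December difference was 5.21 in Jeryak and 5.01 in yak milk for mir-6240-p5, 9.41 and 9.81 for miR-5106, 10.88 and 10.07 for miR-5124a_L-1R-1, and 2.94 and 7.61 for mir-6236-p3_1ss13CG. Over the members the median was 5.21 in P2 and 7.61 in P4, against 0.61 and 0.59 over the 620 entries tested and -0.56 and -0.20 over the 251 bta entries among them. Other groups of entries were also higher in June by their medians, 4.69 and 3.58 for the 175 predicted candidates, 3.51 and 2.60 for 25 other entries of the same precursors and 2.94 and 1.70 for the 52 other mouse-named entries. Every June library was above every December library for 5 of 7 members in Jeryak (31% of the tested entries), for 7 of 7 in yak (25.5%) and for 5 of 7 in both breeds (15.5%). These shares follow from the choice of the entries. The 620 tested entries are those that reached a norm value of 10 in 3 or more libraries, and all 7 members were among them.

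**Figure D2:**
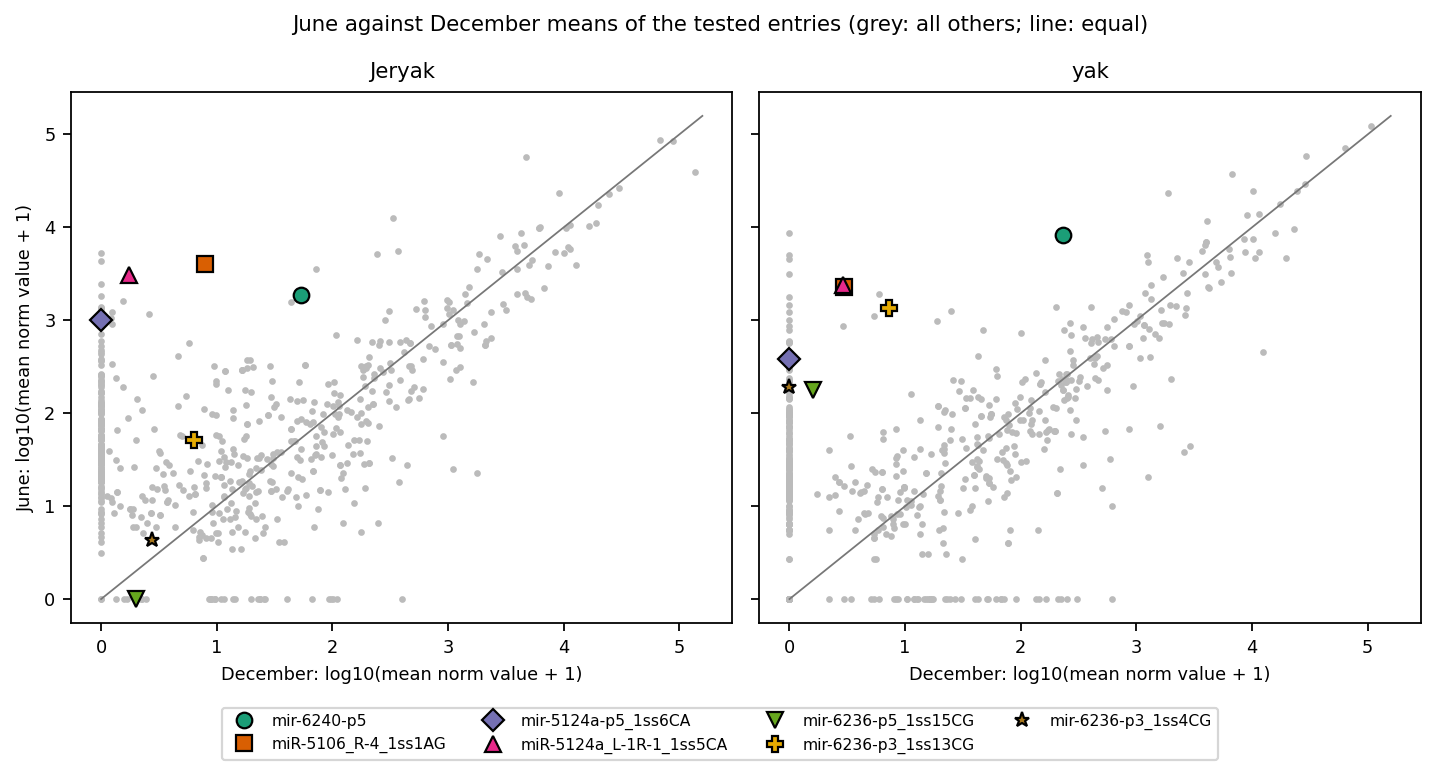
Mean norm values in June (vertical) against December (horizontal) of the 620 tested entries, both on the log10(mean norm value + 1) axis, for Jeryak (left) and yak (right), with the 7 members as coloured symbols and the line of equal values. In yak all 7 members lie above the line, and in Jeryak mir-6236-p5_1ss15CG, listed at 0 in June, lies below it and mir-6236-p3_1ss4CG close to it.

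In June, mir-6240-p5 and mir-6236-p3_1ss13CG were called lower in Jeryak than in yak milk, and the miR-5106 and miR-5124a members did not pass the test. The other mir-6236 members were tested only through June yak milk. The rule named no breed, and P1 and P3 were tested with limma across all 620 entries at a Benjamini-Hochberg adjusted p under 0.05. The choice was still not neutral to breed. mir-6236-p5_1ss15CG and mir-6236-p3_1ss4CG were higher in June in yak (log2 6.76 and 6.53) but not in Jeryak (-0.84 and -0.31). mmu-mir-6236-p5_1ss17GC, higher in June in both breeds and with the higher June mean in Jeryak (371 against 144), was not chosen. The June calls of mir-6236 members are thus not independent of the choice. mmu-mir-6240-p5 was 4.36-fold higher in yak milk by the means (log2 fold change -2.02, standard error 0.48, adjusted p = 0.031 from limma, with no overlap between the breeds). mmu-mir-6236-p3_1ss13CG was 26.9-fold higher in yak milk by the means, 12.5-fold without June yak replicate 1 and 42.8-fold without June Jeryak replicate 1 (log2 fold change -4.37, standard error 1.07, adjusted p = 0.032 from limma). mmu-mir-6236-p3_1ss4CG was lower in Jeryak by the same test (log2 fold change -5.38, standard error 1.28, adjusted p = 0.030), and mmu-mir-6236-p5_1ss15CG, for which no fold is given because the Jeryak libraries were listed at 0, had an adjusted p of 5.6e-04 from limma. These last 2 entries reached the norm value of 10 in the 3 June yak libraries alone and were therefore tested only because June yak milk was high, so they add nothing to the count. Of the other 5 members 2 were lower in Jeryak, and of all 7 it was 4, where 2.42% of the 620 entries were lower and 2.58% higher (5% in either direction). All yak libraries were above all Jeryak libraries for the same 2 of those 5, where 7.42% of the tested entries had this order. For the entries tested through June yak milk the order was largely set by the filter.

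miR-5106 had a log2 fold change of 0.75 between Jeryak and yak in June (95% interval -0.98 to 2.47, adjusted p = 0.61 from limma). miR-5124a_L-1R-1 had 0.46 (95% interval -1.36 to 2.28, adjusted p = 0.82 from limma). Neither interval excludes a 2-fold difference towards Jeryak. mir-5124a-p5 had 1.89 (95% interval 0.12 to 3.66) and no overlap, Jeryak being the higher, as in 7.9% of the tested entries, and missed the threshold over all entries (adjusted p = 0.22, unadjusted p = 0.039 from limma).

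The June calls used the spread of all 12 libraries. Over the 6 June libraries alone none of the 7 members passed, and of the 620 entries 3 were higher and 0 lower, and the adjusted p of mmu-mir-6236-p5_1ss15CG was then 0.053 and that of mmu-mir-6240-p5 was 0.25. Leaving out 1 library at a time left 1 to 4 members called, 1 of them without June Jeryak replicate 2, June yak replicate 1, June yak replicate 3 or December Jeryak replicate 3, and 2 without June Jeryak replicate 1. In the 4 fits with 1 call it was mmu-mir-6236-p5_1ss15CG, which was tested only through June yak milk, so none of the other 5 members passed in them.

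**Figure D3:**
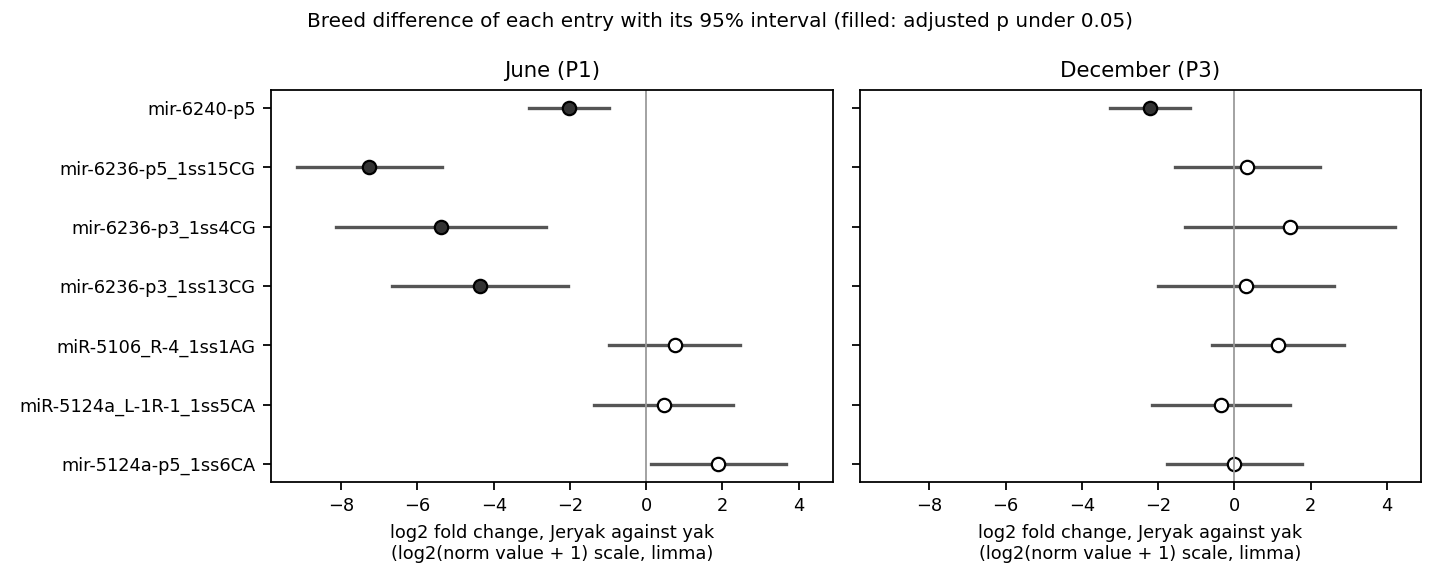
Log2 fold change of Jeryak against yak for each member in June (left) and December (right) on the log2(norm value + 1) scale, with the 95% interval from limma (filled points passed at an adjusted p under 0.05). In June the 4 upper members lie below 0 and the others at 0.46 to 1.89, and in December only mir-6240-p5, at -2.22, is filled. The point of mir-6236-p5_1ss15CG in June depends on the 1 added to values of 0.

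In December, mmu-mir-6240-p5 was again lower in Jeryak milk, by 4.45-fold in the means (log2 fold change -2.22, standard error 0.48, adjusted p = 0.017 from limma, with no overlap between the breeds). It was the 1 member called of 7, where 4.03% of the tested entries were lower and 1.94% higher in Jeryak (5.97% in either direction), and the 1 member with all yak above all Jeryak libraries, as in 11.5% of the tested entries. The call was lost without December Jeryak replicate 1 or 3 or without December yak replicate 2 or 3, with adjusted p up to 0.083. The other 6 members, which were at low values in December, had adjusted p of 0.61 to 1.

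The breed difference of mir-6240-p5 was of like size in both months, with an interaction (P1 minus P3) of 0.20 on the log2 scale (95% interval -1.28 to 1.68, adjusted p = 0.91 from limma). The interaction passed for none of the 5 members that were not tested through June yak milk alone (1 of them at an unadjusted p under 0.05 from limma). It passed for the other 2, mir-6236-p5_1ss15CG and mir-6236-p3_1ss4CG, but June yak milk both put these in the test and enters the difference, so the calls are given with no weight, where 1.61% of the tested entries passed in the negative and 3.87% in the positive direction (5.48% in either). For mir-6236-p3_1ss13CG it was -4.66 (standard error 1.51, adjusted p = 0.12 from limma) and did not pass.

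Of the 41 entries of the 4 precursors, 34 were not among the 7, and 25 of these were tested. Of the 25, 1 was lower and 0 higher in Jeryak in June (4 at an unadjusted p under 0.05 from limma). In December 0 passed in either direction (3 at an unadjusted p under 0.05 from limma). Over all 620 entries 2.42% were lower and 2.58% higher in June, and 4.03% and 1.94% in December. The median log2 fold change of the 25 was -0.31 in June and -0.78 in December, against 0.35 and 0.00 over all 620 entries. The entry that passed was mmu-mir-6236-p3_1ss11CG, with 72.1, 64.2 and 30.8 in June Jeryak and 2449, 209 and 714 in June yak libraries (log2 fold change -3.75, adjusted p = 0.045 from limma). In sequence it lies within mmu-mir-6236-p3_1ss13CG. mmu-mir-6240-p3 had 322 ± 129 in June Jeryak and 1251 ± 831 in June yak libraries (SD, n = 3), with every yak library above every Jeryak library, and mmu-mir-6240-p3_1ss19GT had 177 ± 89 and 977 ± 794. These mir-6240 entries missed the threshold (adjusted p = 0.13 and 0.085 from limma). mmu-miR-5124a_L-1_1ss5CA had 923 ± 371 and 862 ± 762 (adjusted p = 0.88 from limma), with overlapping breeds like the miR-5124a_L-1R-1 member.

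Along the mir-6236 stretch, the June means of entries with the G and of the others lay mostly on opposite sides between the breeds. All 8 entries whose substituted base falls at position 15 of the stretch, the 3 members included, had a higher June mean in yak. For 4 of the 8, the 3 members and p3_1ss11CG, the breeds did not overlap. The other 4 overlapped, and 2 of them were above 0 in 1 June yak library alone. Summed, they had 116 ± 44 in June Jeryak and 2895 ± 2774 in June yak libraries (norm value, SD, n = 3), and the libraries did not overlap (77.7 to 164 and 563 to 5963). The other 10 placed entries hold 7 different sets of values, since some entries share identical values in all libraries, and 6 of the 7 had a higher June mean in Jeryak. Among these 6, mmu-mir-6236-p3_1ss18GC (June means 4.22 in Jeryak, 1.70 in yak) and mmu-mir-6236-p3_1ss20GC (4.31 and 1.87) were near the floor. Both were listed at 0 in several June libraries of each breed or of the whole month, so their direction is not settled. Summed, those 7 had 1185 ± 752 in June Jeryak and 454 ± 206 in June yak libraries, with overlapping libraries (332 to 1751 and 284 to 683). Among them mmu-mir-6236-p3_1 had 48.1, 204 and 629 in June Jeryak and 92.4, 25.99 and 176 in June yak milk. In December the G entries summed to 33.4 ± 7.2 in Jeryak and 11.3 ± 7.9 in yak milk, and the others to 53.8 ± 19 and 143 ± 70. Several G entries were listed at 0 in all December yak libraries, where 3 copies stood for 2.19 to 5.59. One of them, mmu-mir-6236-p3_1ss5CG, had a mean of 13.3 in December Jeryak milk. The December sums of the G entries therefore cannot be ordered between the breeds at this depth. This grouping was made after the values were seen and was not tested. The 2 entries that cover position 15 with the C of the precursor share all their values with mmu-mir-6236-p3_1, which lies further along, so the level of the C form cannot be read on its own.

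**Figure D4:**
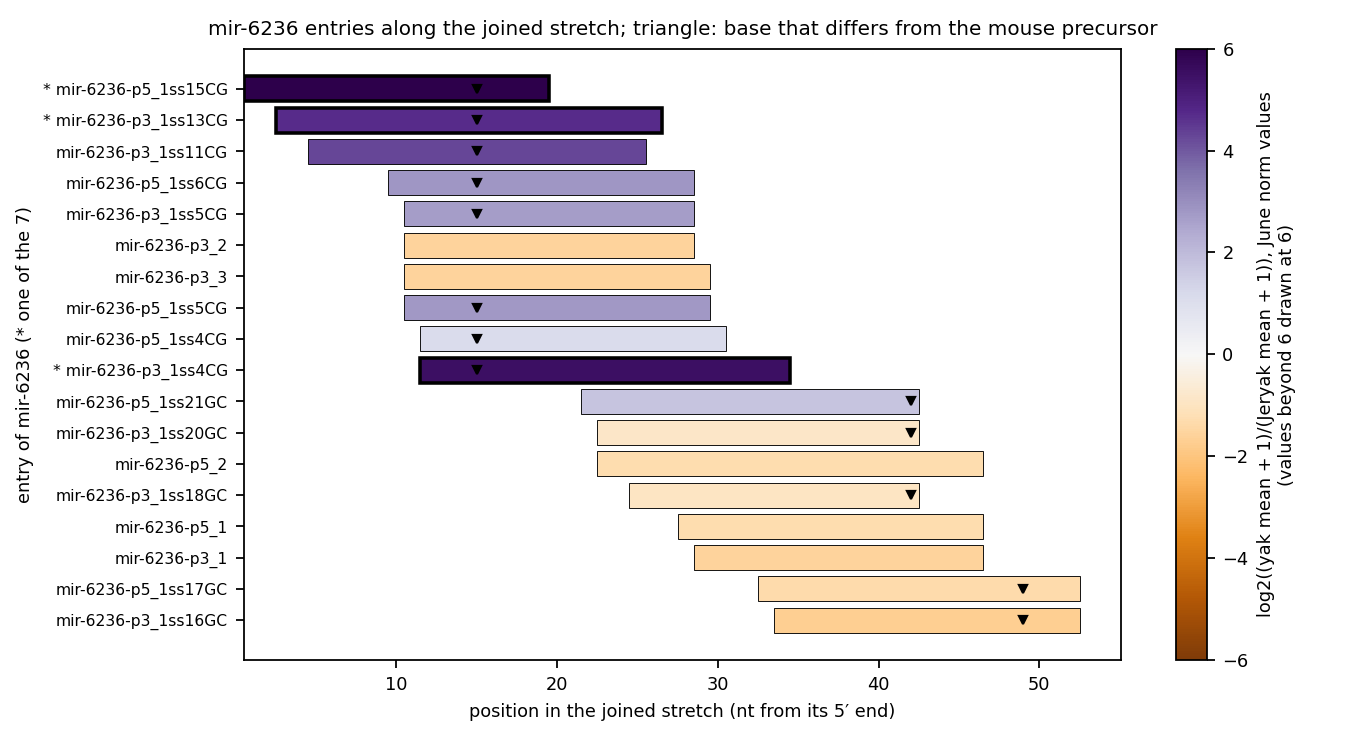
The 18 placed mir-6236 entries along the joined stretch (horizontal axis in nt from its 5′ end, 1 bar for each entry, members with an asterisk and a heavy outline), coloured by the log2 ratio of yak to Jeryak June means plus 1. The 8 entries with the triangle at position 15 are violet (yak higher), and the others are orange (Jeryak higher) except for 1. Bars p3_1, p3_2 and p3_3 share the same values, as do p5_1 and p5_2.

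Other entries named after structural-RNA-like precursors went in several directions. Of 44 such entries from a list of names 18 were tested, and in June 0 passed in either direction (5 at an unadjusted p under 0.05 from limma), while in December 2 were lower and 0 higher in Jeryak (over all tested entries 2.42% lower and 2.58% higher in June, 4.03% and 1.94% in December). Their median log2 fold change was 0.88 in P1 and -1.73 in P3. bta-miR-2904_L-1R+3 came closest to mir-6240-p5, with 5550 ± 4700 in June Jeryak, 23692 ± 12660 in June yak, 367 ± 149 in December Jeryak and 1874 ± 1375 in December yak milk (SD, n = 3), and missed the threshold in both months (log2 fold change -2.25 with adjusted p = 0.074 and -2.13 with adjusted p = 0.075 from limma). ssc-miR-1285_L-1R+1 went another way, with its highest value in December yak milk (12556 ± 3788, against 1023 ± 713 in December Jeryak, log2 fold change -3.79, adjusted p = 0.0042 from limma). In June bta-mir-2887-2-p5 had a log2 fold change of 0.17 (adjusted p = 0.93) and bta-miR-1246_R+2 had 5.56 (adjusted p = 0.074, both from limma). Of the 52 tested mouse-named entries that were not members, 1 was lower in Jeryak in June and 1 in December, close to these shares.

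The entries outside the 4 precursors whose log2 values were most like the mean of the standardised members, over the 12 libraries, were predicted candidates. They were PC-3p-29895_211 (Pearson r = 0.984), PC-5p-25882_252 (r = 0.980) and PC-3p-44579_130 (r = 0.980), where the median over tested entries was 0.23. The libraries share depth and month, so these r are a description. All 3 were listed at 0 in the 6 December libraries, and in June every yak library was above every Jeryak library. PC-3p-29895_211 had 33.0 ± 18 in June Jeryak and 220 ± 126 in June yak libraries (SD, n = 3).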

How the data were processed

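The signal values are norm values made by the authors with ACGT101-miR and used as deposited. Adapters were removed and reads were filtered against mRNA, RFam and Repbase. The remaining sequences of 18 to 26 nt were compared with miRBase 22 precursors, allowing 1 mismatch and varying ends. The paper does not say how copies of a read with several matches were counted. No source used here gives the genome build. The copy number was multiplied by 1 factor per library. Its size was read from the spacing of low values. Of low values 72.0 to 86.4% were whole within 0.005 copies, so counts were not recovered and no count test was used.

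Entries with at least 10 in at least 3 of 12 libraries (620) were fitted as log2(norm value + 1) with limma 3.58.1 (R 4.3.3, trended variance, 4 group means). Python 3.11.15, pandas 2.3.3, numpy 2.4.6 and matplotlib 3.10.9 handled the tables and plots. The members and lists were chosen with earlier results of these data known. The text names all members, the 4 highest entries of their precursors and of a list of structural-RNA-like names and the 3 most similar entries. A few further entries of the same precursors are named where their direction differed. Alternatives were other pseudocounts, filters, scalings, the month alone, a replicate block, the study's criterion and each library left out. A result for 1 table line is not reported.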

Additional observations from a re-analysis of the deposited data

Results flagged for a closer look

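The breed difference in June minus that in December, the interaction term of the limma fit, was -7.61 for mmu-mir-6236-p5_1ss15CG (standard error 1.24) and -6.84 for mmu-mir-6236-p3_1ss4CG (standard error 1.80) on the log2(norm value + 1) scale, and both passed at an adjusted p under 0.05 (0.0069 and 0.045). Both entries were tested only because the 3 June yak libraries reached the filter, and these libraries also enter the difference, so the calls do not show that the breed difference depends on the month. Both sizes depend on the 1 added to values of 0.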

How the results depend on the processing

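The p-values cover 3 libraries a group, too few for an exact permutation test (smallest two-sided p 0.10), and values near 1 copy cannot be ordered between groups of unlike depth. In June 4 members passed, 1 with no filter, 2 with the replicate block, 0 over the month's 6 libraries alone, 0 by the study's criterion (unadjusted p, log2 fold change of at least 1) and 1 to 4 with 1 library left out. With no filter and with the block, mmu-mir-6240-p5 and mmu-mir-6236-p3_1ss13CG no longer passed. In December 1 member passed, 0 with no filter, 2 over the 6 libraries alone, 2 by the study's criterion and 0 to 1 with 1 library left out. The added member was mmu-mir-6236-p3_1ss4CG, higher in Jeryak, at values under the 3-copy limit of the December yak libraries. The interaction had 2 members, 1 with no filter and 1 to 2 with 1 library left out. With a pseudocount of 10 it again had 2, with mmu-mir-6236-p3_1ss13CG (adjusted p = 0.034) in place of mmu-mir-6236-p3_1ss4CG (adjusted p = 0.092, limma). Scaling to library or bta totals changed none of these counts and moved the median of all entries in P4 from 0.59 to 0.35 and 0.38, and in the interaction from 0.09 to 0.27 and 0.38. In P2 the log2 fold change of mmu-mir-6236-p3_1ss4CG, -0.31, turned to 0.10 with a pseudocount of 10 and ranged from -1.46 to 0.26 with 1 library left out (0.26 without June Jeryak replicate 1 or 2). The cause of these changes was not tested. Whether the replicate numbers pair the libraries is not stated. Same-numbered libraries had correlations of deviations of -0.062 to 0.138 and were closest to their own number in 0 to 2 of 3 cases per comparison. These values cannot show whether the same animals were sampled in both months. The block left 1 member called in December and 2 in the interaction.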
